A study of Mus musculus with 9 samples.

Results

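Aquaporins are membrane channels through which water crosses cells, and their transcripts were measured here in the mouse uterus on pseudopregnancy day 4.5. The members were chosen by symbol from a list of 9 genes (Aqp1, Aqp2, Aqp3, Aqp4, Aqp5, Aqp7, Aqp8, Aqp9 and Aqp11), and all 9 were found among the 31274 entries of the deposited expression table. RNA of the whole uterus was sequenced from 4 Wnk1f/f and 5 Wnk1d/d females, with 1 library for each mouse. The mice were virgin C57BL/6 females of 6 to 10 weeks that had been mated to vasectomized wild-type males, so no embryos were present. Both genotypes carried floxed Wnk1 alleles. Wnk1d/d females also carried a Cre driven by Pgr, the progesterone receptor gene, so exon 2 of Wnk1 is removed only where Pgr is active. Endothelial and immune cells lack PGR and keep the exon. Values are FPKM, which are scaled by transcript length and library size and so can be compared between genes.

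Water follows salt and other solutes through aquaporins, and the direction is set by the osmotic gradient and not by the channel. Aqp1, Aqp2, Aqp4, Aqp5 and Aqp8 carry mainly water, Aqp3, Aqp7 and Aqp9 also carry glycerol, and Aqp11 is an unusual member found mainly inside cells. In the uterus, aquaporins are studied for their response to ovarian steroids and for the movement of fluid into the stroma and out of the lumen around implantation.

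The targeted gene was examined first as a check of the labels. Wnk1 was at 44.92, 43.41, 47.32 and 45.52 FPKM in Wnk1f/f replicates 1 to 4 and at 33.94, 29.85, 31.00, 30.16 and 31.27 FPKM in Wnk1d/d replicates 1 to 5. Every Wnk1d/d library was below every Wnk1f/f library (exact two-sided permutation test, p = 0.0079, the smallest that 4 against 5 libraries allow). The value covers the whole gene, exons outside the deletion included. Of 8 genes that mark the uterus, all 8 were above the filter, led by Hoxa10 with a mean of 190.4 FPKM over the 9 libraries. Markers of liver stood apart in Wnk1f/f replicate 4, where the 10 liver genes summed to 224.7 FPKM against 32.8 to 48.6 FPKM in the other 8 libraries, and Alb reached 77.65 FPKM against at most 1.5 FPKM elsewhere. In Wnk1d/d replicate 4 a single entry held 70.3% of the summed FPKM, while the median log2(FPKM + 1) of the genes tested was alike in all libraries, from 3.79 to 3.82. FPKM does not state depth.

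Limma was run on log2(FPKM + 1) of all genes whose mean exceeded 1 FPKM in either genotype. A gene was called when its adjusted p was under 0.05 and the ratio of mean FPKM was at least 1.5 in either direction. Wnk1 itself was not called, because its ratio of 0.690 fell short of this criterion (limma adjusted p = 0.0017). Of the 9 aquaporins, 4 passed the filter (Aqp1, Aqp5, Aqp8 and Aqp11), and limma called 0 of these, where 10.3% of the 14728 genes tested were called. Without the criterion on the ratio, 1 of the 4, Aqp1, had an adjusted p under 0.05, which 22.1% of all genes tested had. At an unadjusted p under 0.05 limma passed 2 of the 4, Aqp1 and Aqp11, beside 38.4% of all genes tested, and the exact permutation tests of the 9 members also passed these 2. With single libraries omitted in turn, the exact tests passed 0 to 2 members. The exact test was not run over all genes, so no share stands beside these counts. Its p-values were not adjusted for the 9 members. None of the 4 had separate ranges in the genotypes, where 19.9% of all genes tested did. With 4 genes, these shares describe the members and set them apart from nothing.

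Levels spanned a wide range. Over the 9 libraries, Aqp1 had a mean of 152.1 FPKM, Aqp8 of 129 FPKM and Aqp5 of 93.5 FPKM, which placed all 3 above 96.9% of the entries of the table. Aqp11 followed with 10.7 FPKM. The other 5 aquaporins had means of 0.433 FPKM for Aqp2, 0.367 FPKM for Aqp4, 0.289 FPKM for Aqp9, 0.242 FPKM for Aqp3 and 0.138 FPKM for Aqp7. Neighbours in this order were compared within libraries by an exact two-sided sign-flip permutation test of log2(FPKM + 1). Aqp5 was above Aqp11 in 9 of 9 libraries, and so was Aqp11 above Aqp2 (p = 0.0039 for each by the exact test, the smallest that 9 libraries allow). Aqp8 was above Aqp5 in 6 of 9 libraries (exact p = 0.039), which were all 5 Wnk1d/d libraries and 1 of the 4 Wnk1f/f libraries. Aqp1 was above Aqp8 in 5 of 9 libraries (exact p = 0.22), which were all 4 Wnk1f/f libraries and 1 of the 5 Wnk1d/d libraries, so the order over all 9 libraries mixes opposite orders in most libraries of the genotypes. Within a genotype, 4 or 5 libraries are too few for this test to reach p under 0.05. The 5 aquaporins at the bottom did not differ from their neighbours among these 5, with exact p from 0.34 to 0.71. When single libraries were omitted in turn, Aqp8 above Aqp5 passed in 3 of 9 cases (exact p from 0.031 to 0.078), so this step of the order depended on single libraries, while the steps from Aqp5 to Aqp11 and from Aqp11 to Aqp2 passed in 9 of 9.

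Aqp1 is the water channel of capillary endothelium and red blood cells. It was at 201.17, 149.87, 174.23 and 187.00 FPKM in Wnk1f/f replicates 1 to 4. In Wnk1d/d replicates 1 to 5 it was at 111.50, 146.85, 116.75, 150.33 and 131.38 FPKM. The 3 highest controls were above every Wnk1d/d library, and the lowest control, replicate 2, lay just under Wnk1d/d replicate 4, so the ranges met at that single point. The mean was 178 ± 21.8 FPKM (SD, n = 4) in Wnk1f/f and 131 ± 17.4 FPKM (SD, n = 5) in Wnk1d/d uteri, a ratio of 0.738. The log2 fold change was -0.44 with a standard error of 0.12 and a 95% interval from -0.70 to -0.17 (limma adjusted p = 0.029), with p = 0.024 by exact permutation. The difference thus passed both tests but was smaller than the ratio asked of a call. When single libraries were omitted in turn, the limma adjusted p ranged from 0.021 to 0.075 and was under 0.05 in 3 of 9 fits, with log2 fold changes from -0.52 to -0.38. Quantile normalization gave a ratio past the criterion (log2 fold change -0.60, limma adjusted p = 0.017).

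**Figure D1:**
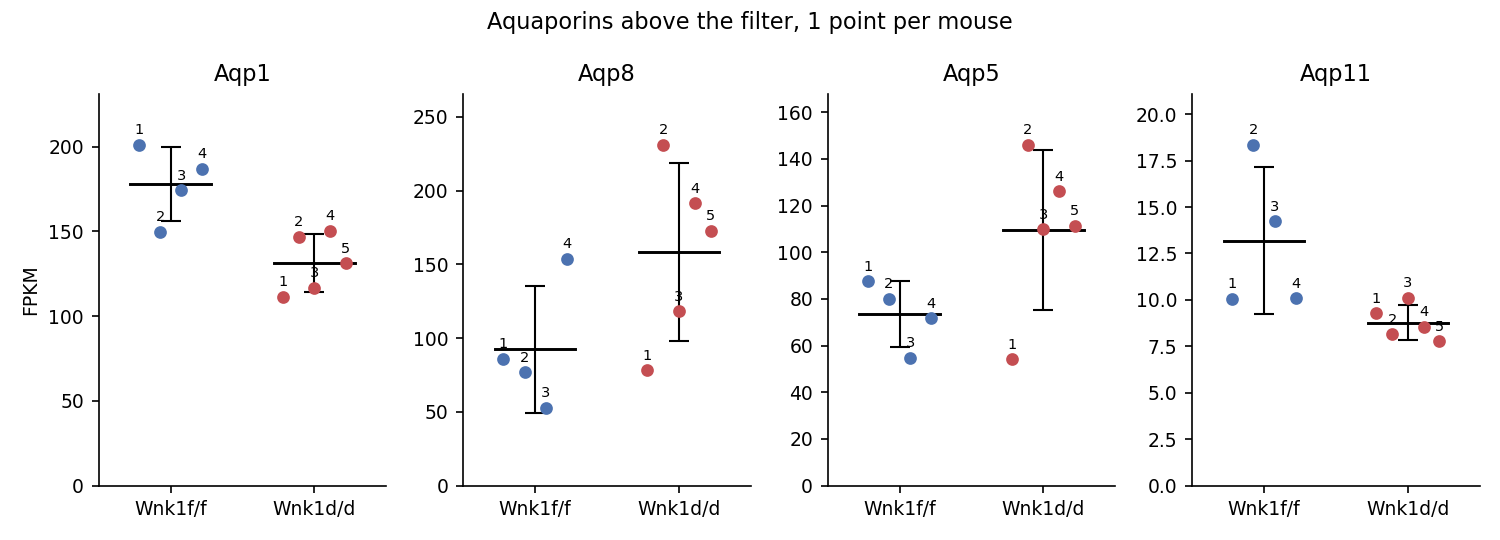
FPKM of Aqp1, Aqp8, Aqp5 and Aqp11 in each mouse, with the replicate number above each point, the mean as a horizontal line and the SD as an error bar (n = 4 Wnk1f/f and n = 5 Wnk1d/d). Each vertical axis starts at 0 and has its own scale, and the ranges of the genotypes overlap in all 4 panels, for Aqp1 only between 149.87 and 150.33 FPKM.

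Markers of endothelium were lower beside Aqp1. All 10 endothelial genes had lower mean FPKM in Wnk1d/d uteri. Of the 10, 7 were called lower, where 10.3% of all genes tested were called in either direction. Their median log2 fold change was -0.68, where that of all genes tested was 0.0030. The number of calls ranged from 3, without Wnk1d/d replicate 1, to 9, without Wnk1d/d replicate 2. The most abundant gene of the list, Egfl7, was not called, with 159.6 ± 9.87 FPKM (SD, n = 4) in Wnk1f/f and 108 ± 26.6 FPKM (SD, n = 5) in Wnk1d/d uteri. Summed over the list, endothelial markers reached 703.8, 779.4, 725.7 and 714.3 FPKM in Wnk1f/f replicates 1 to 4. In Wnk1d/d replicates 1 to 5 the sum was 298.6, 587.5, 393.7, 529 and 494.3 FPKM. Within Wnk1d/d, the library with the lowest sum, replicate 1, also had the lowest Aqp1, while within Wnk1f/f the library with the highest sum, replicate 2, had the lowest Aqp1. Divided by this sum, Aqp1 was at 0.192 to 0.286 in Wnk1f/f and at 0.250 to 0.373 in Wnk1d/d libraries. These ranges overlapped, and the ratios were not tested. In whole tissue, fewer cells of a type and less RNA in each cell cannot be told apart, and the part of endothelial cells in the Aqp1 difference was not tested. Of 8 erythrocyte genes, 5 were in the table, and 3 of these stayed under 1 FPKM in every library. The most abundant, Hba-a2, did not differ between genotypes (52.4 ± 14.6 FPKM, SD, n = 4, and 58.2 ± 37.7 FPKM, SD, n = 5; limma adjusted p = 0.99).

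**Figure D2:**
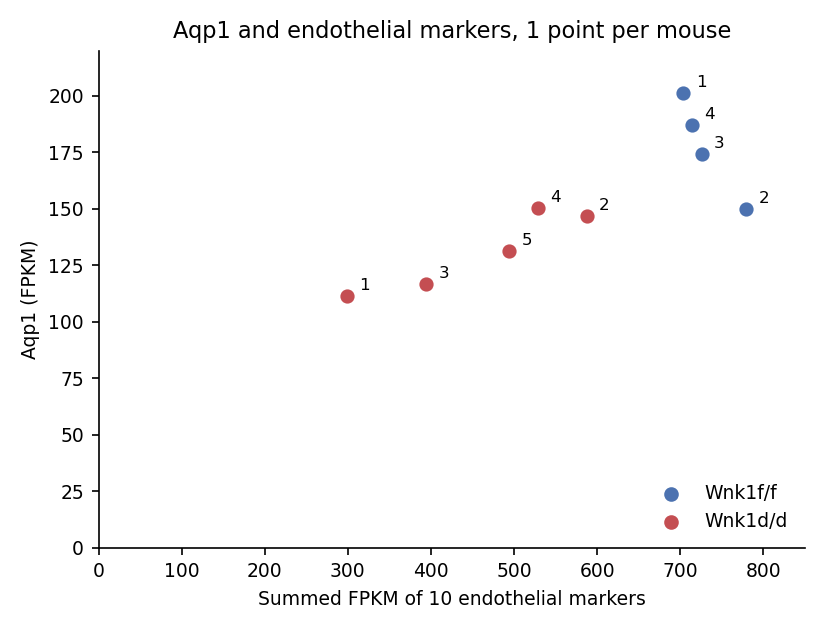
Aqp1 FPKM (vertical axis) against the summed FPKM of 10 endothelial markers (horizontal axis), 1 point per mouse with its replicate number, Wnk1f/f in blue and Wnk1d/d in red. The Wnk1d/d points lie to the left, at sums from 298.6 to 587.5 FPKM against 703.8 to 779.4 FPKM in Wnk1f/f, and most lie lower as well.

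Aqp8 carries water and also small solutes such as ammonia and hydrogen peroxide, and is known from digestive and reproductive epithelia. It was at 86.08, 77.07, 52.77 and 153.68 FPKM in Wnk1f/f replicates 1 to 4. In Wnk1d/d replicates 1 to 5 it was at 78.27, 231.11, 118.14, 191.52 and 172.79 FPKM. Wnk1d/d replicate 1 lay among the controls, Wnk1f/f replicate 4 lay among the Wnk1d/d libraries, and 3 Wnk1d/d libraries were above every control. The means were 92.4 ± 43.2 FPKM (SD, n = 4) and 158 ± 60.5 FPKM (SD, n = 5), a ratio of 1.71, with a log2 fold change of 0.78, a standard error of 0.36 and a 95% interval from -0.03 to 1.59 (limma adjusted p = 0.14). By exact permutation p was 0.087, so the difference did not exceed the spread between mice, and the interval is wide. The high control was the library with liver transcripts. Without it the log2 fold change was 1.06 (limma adjusted p = 0.073), and without Wnk1f/f replicate 3 it was 0.55 (limma adjusted p = 0.30). These fold changes were the ends of the range over fits that left out 1 library, and none of those fits called Aqp8 (limma adjusted p from 0.063 to 0.30). The part of the liver transcripts in the Aqp8 level of that control was not tested.

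Aqp5 is the water channel of glandular and secretory epithelia. It was at 87.69, 80.08, 54.92 and 71.64 FPKM in Wnk1f/f replicates 1 to 4. In Wnk1d/d replicates 1 to 5 it was at 54.07, 146.14, 109.92, 126.08 and 111.35 FPKM. Of the Wnk1d/d libraries, 4 were above every control, and replicate 1 was below every control. The means were 73.6 ± 14.1 FPKM (SD, n = 4) and 109.5 ± 34.3 FPKM (SD, n = 5), a ratio of 1.49, with a log2 fold change of 0.52, a standard error of 0.26 and a 95% interval from -0.08 to 1.11 (limma adjusted p = 0.18; exact permutation test p = 0.15). Wnk1d/d replicate 1 decided this result. Without it the log2 fold change of Aqp5 was 0.75 (limma adjusted p = 0.019) and Aqp5 was called, while over the fits that left out 1 library the adjusted p ranged from 0.019 to 0.35. That library was also the lowest of its genotype for Aqp1, Aqp8 and the endothelial sum, and it had 439.3 FPKM of the gland protease Prss29, where the other Wnk1d/d libraries had 1525 to 1719 FPKM. Because it was picked out after its Aqp5 and Aqp8 values were seen, its omission gives no independent support to a difference.

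Epithelial markers were read beside Aqp5 and Aqp8. Of 10 epithelial genes, 3 were called higher (Krt7, Cldn7 and Elf3) and 0 lower by limma, with 8 of the 10 higher by mean, 4 of the 10 at an unadjusted p under 0.05 and a median log2 fold change of 0.21. Over all genes tested, 10.3% were called and 38.4% had an unadjusted p under 0.05. With single libraries omitted in turn, 0 to 3 were called. The most abundant, Cldn3, had 362 ± 106 FPKM (SD, n = 4) in Wnk1f/f and 381 ± 16.5 FPKM (SD, n = 5) in Wnk1d/d uteri. The epithelial sum was highest, at 1993 FPKM, in Wnk1d/d replicate 1, the library in which Aqp5 was lowest. Of 8 endometrial gland genes, 1 was called higher and 3 lower by limma. By mean, 5 of the 8 were higher, and the median log2 fold change was 0.21. The most abundant, Prss29, was called lower, with 3549 ± 867.96 FPKM (SD, n = 4) in Wnk1f/f and 1358 ± 519.8 FPKM (SD, n = 5) in Wnk1d/d uteri. With single libraries omitted in turn, 3 to 5 gland genes were called, and Prss29 in 7 of 9 fits, not without Wnk1f/f replicate 1 or Wnk1f/f replicate 4. The part of epithelial or glandular cells in the aquaporin values was not tested.

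Aqp11, an aquaporin of the endoplasmic reticulum, was at 10.06, 18.36, 14.24 and 10.09 FPKM in Wnk1f/f replicates 1 to 4. In Wnk1d/d replicates 1 to 5 it was at 9.28, 8.17, 10.11, 8.55 and 7.79 FPKM. Controls 2 and 3 stood above the rest, controls 1 and 4 were just below Wnk1d/d replicate 3, and the Wnk1d/d libraries lay close together. The means were 13.2 ± 3.97 FPKM (SD, n = 4) and 8.78 ± 0.925 FPKM (SD, n = 5), a ratio of 0.666, with a log2 fold change of -0.50, a standard error of 0.17 and a 95% interval from -0.87 to -0.13. It missed the threshold after adjustment (limma adjusted p = 0.056), with p = 0.024 by exact permutation. Aqp11 was called without Wnk1f/f replicate 1 (log2 fold change -0.61, limma adjusted p = 0.043), without Wnk1f/f replicate 4 (log2 fold change -0.61, limma adjusted p = 0.049) and with library weights (log2 fold change -0.53, limma adjusted p = 0.032), but not in the other fits. Without Wnk1f/f replicate 2 the log2 fold change was -0.34 (limma adjusted p = 0.097), and over all fits that left out 1 library it ranged from -0.61 to -0.34 and the adjusted p from 0.043 to 0.12.

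The other 5 aquaporins were near the floor of the measurement. Of their 45 values, 44 were under 1 FPKM, from 0.03 FPKM up to 1.21 FPKM of Aqp4 in Wnk1f/f replicate 1, and none was listed at 0. Aqp2, the channel of the kidney collecting duct, ranged from 0.24 to 0.61 FPKM in Wnk1f/f and from 0.26 to 0.72 FPKM in Wnk1d/d libraries (exact permutation test p = 0.49). Aqp4, the main aquaporin of astrocytes, ranged from 0.10 to 1.21 FPKM and from 0.03 to 0.50 FPKM (exact p = 0.11). Both ranges overlapped between the genotypes. Among the glycerol channels, Aqp9, known from liver and leukocytes, ranged from 0.17 to 0.79 FPKM and from 0.12 to 0.25 FPKM (exact p = 0.071). Aqp3, known from skin and collecting duct, ranged from 0.04 to 0.93 FPKM and from 0.11 to 0.26 FPKM (exact p = 0.93). Aqp7, the channel of adipocytes, ranged from 0.07 to 0.13 FPKM and from 0.08 to 0.22 FPKM (exact p = 0.16). The highest Aqp9 and the highest Aqp3 were both in Wnk1f/f replicate 4, the library with liver transcripts, and without it the difference of Aqp3 changed sign, from -0.07 to 0.14 on the log2 scale. That of Aqp9 went from -0.26 to -0.14 (exact p = 0.16) without it, while without Wnk1f/f replicate 2 it was -0.35 (exact p = 0.036). In a limma fit of all entries, filter left off, 1 of the 5, Aqp9, passed at an unadjusted p under 0.05 (adjusted p = 0.16), and 0 of the 5 passed after adjustment. Over the 21949 entries of that fit, 30.4% passed before and 13.7% after adjustment. Fold changes of log2(FPKM + 1) understate differences at these levels. The family genes outside the list were also near the floor, with at most 0.04 FPKM of Mip, 0.12 FPKM of Aqp6 and 0.22 FPKM of Aqp12 in any library.

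**Figure D3:**
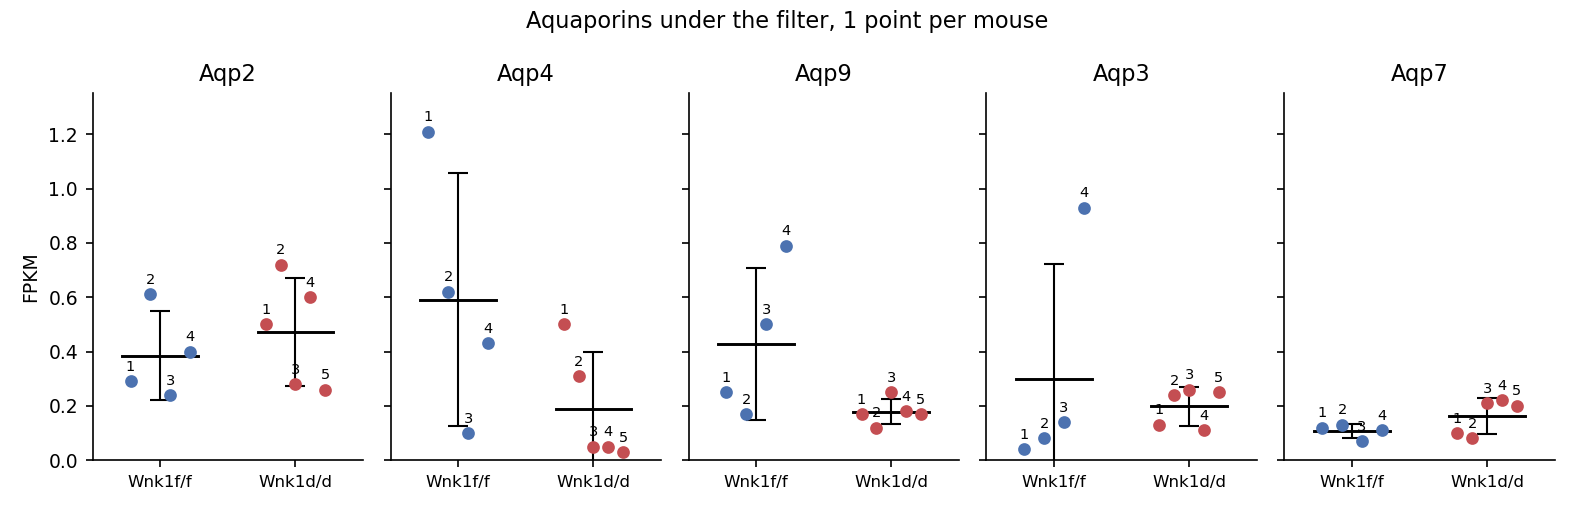
FPKM of the 5 aquaporins under the filter in each mouse, with replicate numbers, the mean as a horizontal line and the SD as an error bar, clipped at 0 (n = 4 Wnk1f/f and n = 5 Wnk1d/d). All panels share 1 vertical axis, on which 44 of 45 values are under 1 FPKM and the ranges of the genotypes overlap in every panel.

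The make-up of the aquaporin pool differed between libraries. Summed over the 9 aquaporins, FPKM was 359 ± 57.7 (SD, n = 4) in Wnk1f/f and 409.2 ± 108.6 (SD, n = 5) in Wnk1d/d uteri, and Aqp1, Aqp5, Aqp8 and Aqp11 together held at least 99.37% of it in each library. Aqp1 was the most abundant aquaporin in 4 of 4 Wnk1f/f libraries and in 1 of 5 Wnk1d/d libraries, and Aqp8 in the other 4. Aqp1 made up 44.0% to 58.6% of the sum in Wnk1f/f and 27.5% to 43.8% in Wnk1d/d libraries. For Aqp8 these shares were 17.8% to 36.2% and 30.8% to 43.3%, and for Aqp5 they were 16.9% to 24.5% and 21.2% to 30.9%. Within a library, the ratio of Aqp8 to Aqp1 FPKM ranged from 0.303 to 0.822 in Wnk1f/f and from 0.702 to 1.57 in Wnk1d/d uteri. The ratio of Aqp5 to Aqp1 ranged from 0.315 to 0.534 and from 0.485 to 0.995. In both ratios Wnk1d/d replicate 1 was the only Wnk1d/d library within the control range. These shares and ratios are descriptions, chosen after the values were seen, and were not tested.

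**Figure D4:**
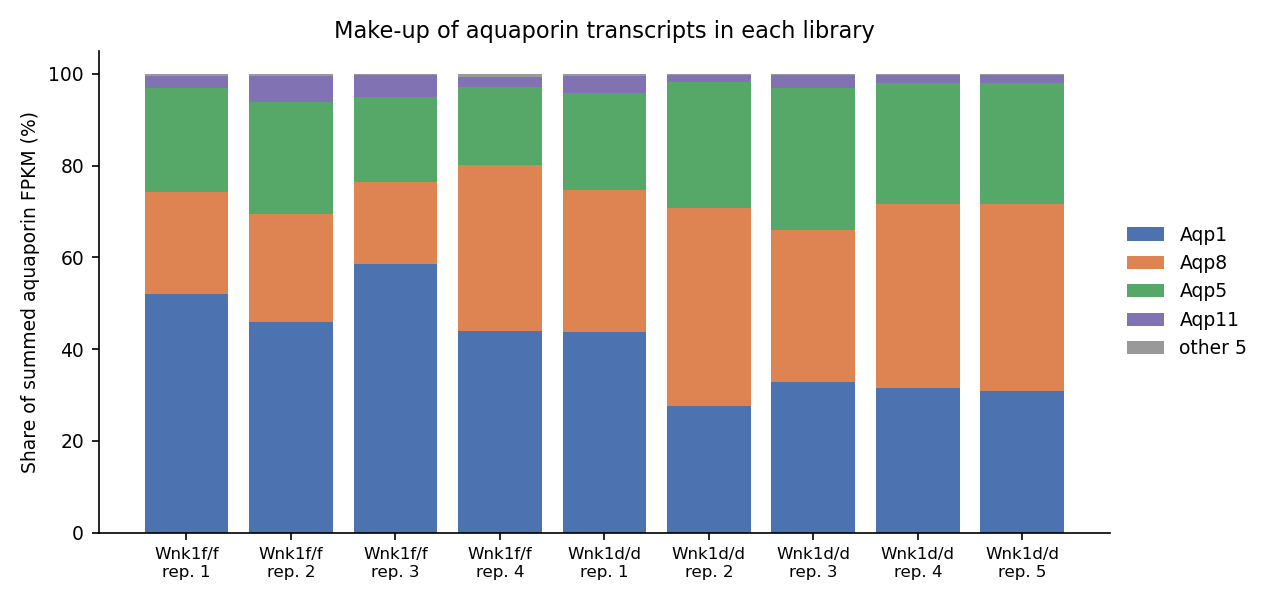
Share of each aquaporin in the summed FPKM of the 9 aquaporins (vertical axis, percent) in each library (horizontal axis), with the 5 aquaporins under the filter drawn together. Aqp1 takes 44.0% to 58.6% in Wnk1f/f libraries and 27.5% to 43.8% in Wnk1d/d libraries.

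Of the 9 aquaporins, 8 were placed on mm10 by GENCODE release M21, and no exon of another gene lies over theirs. No position was obtained for Aqp4, which does not show that the annotation lacks it. Aqp1 lies on the plus strand of chromosome 6, chr6:55336432-55348555, and Aqp8 on the plus strand of chromosome 7, chr7:123462291-123468004. Aqp11 lies on the minus strand of chromosome 7, chr7:97724006-97738289. Aqp5 lies on the plus strand of chromosome 15, chr15:99590782-99594829, between Aqp2, which ends 6234 bases before it, and Aqp6, which starts 6570 bases after it. These 3 neighbours share a strand and have no protein-coding gene between them, yet Aqp5 averaged 93.5 FPKM where Aqp2 averaged 0.433 FPKM and Aqp6 stayed at or under 0.12 FPKM. Aqp7 and Aqp3, both near the floor, lie 44582 bases apart on the minus strand of chromosome 4.

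Because Aqp1 and Aqp8 had the highest means, the 250 bases before the RefSeq start of each are shown, 5′ to 3′ on the strand of the gene (GRCm38.p6). The Aqp1 stretch is chr6:55336049-55336298 and the Aqp8 stretch chr7:123462044-123462293, both on the plus strand, and the last 3 bases of the Aqp8 stretch fall in its first exon by GENCODE.
Aqp1: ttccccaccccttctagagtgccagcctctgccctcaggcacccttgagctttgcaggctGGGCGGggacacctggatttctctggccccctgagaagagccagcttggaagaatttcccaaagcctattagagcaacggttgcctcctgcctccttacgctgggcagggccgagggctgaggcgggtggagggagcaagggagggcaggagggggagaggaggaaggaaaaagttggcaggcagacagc
Aqp8: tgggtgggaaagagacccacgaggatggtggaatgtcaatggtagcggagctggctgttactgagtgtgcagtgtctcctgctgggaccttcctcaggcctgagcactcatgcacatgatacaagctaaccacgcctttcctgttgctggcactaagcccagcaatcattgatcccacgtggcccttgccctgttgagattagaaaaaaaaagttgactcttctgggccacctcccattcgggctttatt
Capitals mark matches, on either strand, to 6 short motifs: the nuclear receptor half-site AGGTCA, the steroid receptor half-site TGTTCT, the GC box GGGCGG, the TATA box TATAAA, the forkhead motif TGTTTAC and the NFAT core TGGAAA. The Aqp1 stretch held 1 match, a GC box that starts 190 bases before the start, and 32.7% of 32851 promoter entries of the same length held that motif. The Aqp8 stretch held none of the 6, which says only that these letters are not in this window. The other motifs were held by 14.0% (AGGTCA), 16.1% (TGTTCT), 12.4% (TATAAA), 3.17% (TGTTTAC) and 18.6% (TGGAAA) of the entries. The bases were 62% G or C for Aqp1 and 52.4% for Aqp8, where the median of all entries was 52.4%.

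Genes of ion and fluid transport, which set up the gradients that water follows, were taken from a list of 34, of which 32 passed the filter. Of these, 7 were called higher and 5 lower in Wnk1d/d uteri, where 10.3% of all genes tested were called in either direction. The median log2 fold change of the list was 0.17 against 0.0030 over all genes tested. The carbonic anhydrase Car2 rose, with 47.9 ± 10.3 FPKM (SD, n = 4) in Wnk1f/f and 135.1 ± 65.4 FPKM (SD, n = 5) in Wnk1d/d uteri (limma adjusted p = 0.016, with a log2 fold change of 1.38). The sodium and proton exchanger Slc9a2 fell from 1.24 to 0.228 FPKM, and the chloride transporters Slc26a9 and Cftr rose from 0.632 to 2.43 FPKM and from 0.98 to 2.63 FPKM. Each of these 3 was under 1 FPKM by mean in the other genotype, so it passed the filter only through the genotype where it was high. With single libraries omitted in turn, Slc9a2 was called in 9 of 9 fits, Slc26a9 in 6 and Cftr in 5, so the rises of Slc26a9 and Cftr depended on single libraries. The most abundant gene of the list, the membrane protein gene Fxyd3, was called higher with a ratio of 1.51, close to the criterion, and was called in 11 of the 20 alternative fits. Without Wnk1d/d replicate 1 the list held 8 calls.

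Of 11 genes of glycerol handling tested, 1 was called, which is near the 10.3% of all genes tested that were called. The median log2 fold change of the list was -0.03. The call was the triglyceride synthesis enzyme Dgat2, with 39.2 ± 8.94 FPKM (SD, n = 4) in Wnk1f/f and 82.9 ± 26.7 FPKM (SD, n = 5) in Wnk1d/d uteri (limma adjusted p = 0.018). The lipid droplet gene Plin2 was at 62.1 and 65.2 FPKM. Of 13 genes of the osmotic response tested, 1 was called, which is also near 10.3%. The call was the heat shock gene Hspa1b, with 20.97 ± 4.76 and 39.6 ± 4.42 FPKM (limma adjusted p = 0.0056). An adjusted p under 0.05 was found for 5 of the 13, Wnk1 among them, and for 22.1% of all genes tested. The osmolyte transporter Slc6a6 had 57.0 and 48.3 FPKM and the amino acid transporter Slc38a2 46.3 and 53.2 FPKM, without a call.

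Markers of other tissues were read beside the aquaporins known from them. For Aqp2, 7 of 8 kidney genes stayed under 1 FPKM in every library, and the most abundant was Slc12a3 with a mean of 3.94 FPKM. For Aqp7, 6 of 8 adipocyte genes stayed under 1 FPKM, Lep was at 0 in all libraries, and Fabp4 rose from 3.13 to 10.9 FPKM. The 2 adipocyte genes that passed the filter, Fabp4 and Plin4, were called higher. Fabp4 was called in 9 of 9 fits that left out 1 library, Plin4 only in some. For Aqp9, the most abundant liver gene was Trf, with 30.1 and 22.6 FPKM, and the most abundant neutrophil gene was Retnlg, with a mean of 1.46 FPKM. Of 8 pancreas genes, 6 stayed under 1 FPKM in every library, and the most abundant was Cela1 with a mean of 10.9 FPKM. Cela1, the only pancreas gene that passed the filter, was called higher, with 7.85 and 13.3 FPKM. It was called in 5 of 9 fits that left out 1 library. All 8 smooth muscle genes were called higher, led by Tagln with 1722 and 3512 FPKM, and 4 to 8 were called when single libraries were omitted, Tagln in 4 of 9 such fits. The stromal list had 2 calls in each direction among 8 genes tested and was led by Col3a1. The macrophage list had 1 call among 7 tested and was led by Lyz2. The urothelial list had 1 call among 6 tested and was led by Upk3b. The list for oviduct and ovary had 1 call among 4 tested, Ovgp1, with 11.3 and 52.6 FPKM. Beside these counts, 10.3% of all genes tested were called. The part of these cell types in the aquaporin values was not tested.

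Genes most like each aquaporin were taken by Pearson correlation of log2(FPKM + 1) over the 9 libraries after the mean of each genotype was subtracted, among 14727 genes. With so many genes and 9 libraries, high values arise without any relation, so they are given as a description. Aqp1 was most like Spock2 (r = 0.96, Spearman 0.88), Meis2 (r = 0.96, Spearman 0.95) and Gad1os (r = 0.95, Spearman 0.92). Aqp8 was most like Cmtm3 (r = 0.98, Spearman 0.97), Itprip (r = 0.98, Spearman 0.97) and Dffb (r = 0.97, Spearman 1). Aqp5 was most like Mta1 (r = 0.98, Spearman 0.85), Clasrp (r = 0.98, Spearman 0.87) and Tnfsf12Tnfsf13 (r = 0.97, Spearman 0.63), and all 3 share with Aqp5 their lowest value, in Wnk1d/d replicate 1. Aqp11 was most like Hn1l (r = 0.96, Spearman 0.95), Hmgn2 (r = 0.95, Spearman 0.95) and Cish (r = 0.95, Spearman 0.97). Among the aquaporins themselves the values were r = 0.75 for Aqp5 and Aqp8 (Spearman 0.60), 0.69 for Aqp1 and Aqp8 (Spearman 0.68), 0.61 for Aqp1 and Aqp5 (Spearman 0.62), -0.76 for Aqp1 and Aqp11 (Spearman -0.73), -0.56 for Aqp8 and Aqp11 (Spearman -0.62) and -0.22 for Aqp5 and Aqp11 (Spearman -0.25), over the same 9 libraries.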

How the data were processed

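FPKM values were deposited by the authors as 1 table of 31274 entries, with replicates not pooled. By the paper's methods, libraries were made with the TruSeq kit and paired-end reads were filtered by quality. The submitters' processing notes name alignment to mm10 with TopHat2 2.0.4, and Cufflinks 2.0.2. The gene annotation is not given in the sources used here. Columns were matched to mice by their labels.

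From the deposited FPKM, log2(FPKM + 1) was fitted without pairing by lmFit and trended eBayes (limma 3.58.1, R 4.3.3), for genes with a mean above 1 FPKM in at least 1 genotype, with Benjamini-Hochberg adjustment over 14728 genes. The limma step was tested on simulated data. Exact permutation tests were two-sided and run over the 126 splits or over sign flips (Python 3.11.15, NumPy 2.4.6). Positions come from GENCODE M21 and promoters from RefSeq, with a promoter entry found for 8 of the 9 members. FPKM holds no counts, so depth is unknown. Steps in low values, read in 6 ways over few entries, gave a worth of 1 fragment 1.28 to 1.42 times as high in the highest as in the lowest library, and the libraries at the ends changed.

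Named genes were the members, Mip, Aqp6, Aqp12, Wnk1, some of the called and the most abundant genes of the lists, and the 3 genes most like each aquaporin. Members and lists were chosen with earlier results of these data known. Alternatives were other pseudocounts, filters, scalings, limma options, a replicate block, other ratios, and leaving out each library. Leaving out Wnk1f/f replicate 4 and Wnk1d/d replicate 1 together was added after the data were seen.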

Additional observations from a re-analysis of the deposited data

Results flagged for a closer look

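Within each genotype, the highest and lowest library of 49 genes were compared with the others by Dixon's 95% criterion. These 49 did not include all genes named above: Mip, Aqp6, Aqp12, Alb, Lep, Krt7, Cldn7 and Elf3 were not examined in this way. Chance alone meets the criterion in about 1 of 20 groups. Of 98 groups, 8 met it. The genes named for their likeness to an aquaporin were chosen by these same values, so that rate does not hold for them, and without them 6 of 74 groups met it. Among aquaporins this was Aqp3, with 0.93 FPKM in Wnk1f/f replicate 4 against 0.04 to 0.14 FPKM in the other controls. In Wnk1d/d replicate 1, Plin2 was high at 71.12 FPKM (others 62.74 to 64.78 FPKM) and Prss29 was low at 439.34 FPKM (others 1525 to 1719 FPKM). In the same library Mta1, at 30.70 FPKM (others 37.64 to 40.11 FPKM), and Tnfsf12Tnfsf13, at 2.52 FPKM (others 4.52 to 5.22 FPKM), were low, but both were chosen for following Aqp5, which was low there. Single low values were Slc38a2 at 51.60 FPKM in Wnk1d/d replicate 5 (others 53.28 to 53.89 FPKM), Col3a1 at 736.36 FPKM in Wnk1d/d replicate 4 (others 887.07 to 928.58 FPKM) and Hba-a2 at 30.71 FPKM in Wnk1f/f replicate 1 (others 57.93 to 62.52 FPKM). Their causes were not tested.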

How the results depend on the processing

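Limma called 0 aquaporins in the fit as planned and in 9 of the 13 alternatives that left out no single library. It called 1 with quantile normalization (Aqp1), 1 with library weights (Aqp11) and 1 with no fold criterion (Aqp1). Leaving out 1 library gave 0 to 1 aquaporins. Leaving out Wnk1f/f replicate 4 and Wnk1d/d replicate 1 together, chosen after seeing the data, gave 2: Aqp5 (log2 fold change 0.74, limma adjusted p = 0.047) and Aqp8 (1.29, limma adjusted p = 0.032). Wnk1d/d replicate 1 was doubted in part for its low Aqp5 and Aqp8, so this fit leaves out a library by the measured outcome and is no support for a difference. The same fit called 748 genes in all, 5 of ion and fluid transport and 0 of glycerol handling.

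Of all genes, 1513 were called as planned, 3249 with no fold criterion, 550 at a ratio of at least 2 and 1019 to 1870 with 1 library left out. Ion and fluid transport had 12 calls as planned, 5 at a ratio of at least 2 and 8 to 12 with 1 library left out. Glycerol handling had 1 call as planned and in each fit that left out 1 library, and 2 with no fold criterion. Osmotic response had 1 call as planned, 2 with no filter, 2 with quantile normalization, 5 with no fold criterion, 0 at a ratio of at least 2 and 1 to 2 with 1 library left out.

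With the replicate block, 218 genes in all, 1 gene of ion and fluid transport and 0 of glycerol handling were called, and aquaporin and osmotic response counts were 0 and 1. The replicate numbers belong to different mice, and correlations of same-numbered deviations over genes were -0.27 to 0.02, so the numbers do not pair the mice.

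The exact permutation test, unadjusted and not run over all genes, passed 2 of 9 aquaporins as planned and 0 to 2 with 1 library left out. In the order of levels, 3 of 8 neighbouring pairs differed as planned and 2 to 3 with 1 library left out. Only the difference of Aqp3 changed sign, from -0.07 to 0.14 without Wnk1f/f replicate 4, to 0.048 with a pseudocount of 0.1 and to 0.31 with 0.01, and it ranged from -0.16 to 0.14 with 1 library left out. Causes were not tested. Aqp1 and Aqp11 stayed lower and Aqp5 and Aqp8 higher in Wnk1d/d uteri in all 20 alternative fits. Other filters and limma's trend and robust options leave these fold changes as they are, and all fits draw on the same mice. This count is therefore no independent support for a difference.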
